A study of Mus musculus with 6 samples.

Results

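The 10 smooth muscle genes *Acta2*, *Actg2*, *Myh11*, *Tagln*, *Cnn1*, *Smtn*, *Lmod1*, *Myocd*, *Synpo2* and *Kcnmb1* were followed in ureter explants treated with LiCl. They were chosen by name, and each symbol was matched to 1 of the 56748 Ensembl gene identifiers counted by RNA-Seq. Ureters of E12.5 NMRI wildtype embryos were explanted and cultured for 18 h either with 15 mM LiCl, which inhibits the kinase GSK3B and so activates WNT signaling, or with water as control. Each group held 3 samples of whole ureters. All 6 samples thus share the explant culture and its medium, and the number of ureters per sample is not given in the sources used here. The total count per sample was between 28473436 and 31266945, and the 10 genes together received 4680 to 5807 counts in the controls and 3620 to 4198 after LiCl.

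The tunica muscularis of the ureter arises from mesenchymal cells next to the epithelium, the inner ureteric mesenchyme (UM). Undifferentiated mesenchymal cells first express *Myocd*, whose product binds the transcription factor SRF and activates the genes of the contractile apparatus through SRF sites known as CArG boxes. These genes encode smooth muscle actins and myosin, the proteins that regulate and anchor the filaments, and channel subunits that set the tone of the cell. At E12.5 the UM does not yet hold mature smooth muscle cells (SMCs). Since whole ureters were measured, fewer cells of a type and less RNA per cell cannot be told apart.

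Samples of 1 group were distinct beyond counting noise, with a chi-square divided by its degrees of freedom of 5.97 to 14.6 over the pairs. LiCl replicates 1 and 3 stood apart by transcripts of skeletal muscle, with a summed level of 16 skeletal muscle markers of 41.3 and 88.5 CPM (counts scaled to a common library size with TMM factors), against 11.4 CPM in LiCl replicate 2 and 10.9 to 12.8 CPM in the controls. The counts of 2 of the 10 genes are uncertain for another reason. In the gene models of GENCODE vM21, 67.9% of the exon bases of *Tagln* overlap *Pcsk7* or *Gm48529* on the opposite strand, and 16.3% of those of *Smtn* overlap other transcripts in the same way. The strand setting of the counting is not given in the sources used here. No other member overlapped another gene on either strand, and *Acta2* and *Actg2* shared no stretch of 100 bases with each other or with any other gene.

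After LiCl, the genes for the smooth muscle myosin heavy chain (*Myh11*), calponin (*Cnn1*) and the enteric smooth muscle actin (*Actg2*) were lower, each to less than 0.5 of its control level, while *Myocd* showed no change past the test. Calls of lower or higher needed a log2 fold change below -1 or above 1 together with an adjusted p under 0.05 in edgeR's quasi-likelihood test with Benjamini-Hochberg adjustment over 18188 genes. Of the 9 members tested, 3 were called lower, against 4.59% of all tested genes, and 0 were called higher, against 2.74% (7.33% in either direction). At an adjusted p under 0.05 alone, where the verbs rose and fell are used, 6 members fell and 0 rose, against 22.4% and 21.1% of all tested genes. The median log2 fold change was -0.56 over the 9 members and -0.01 over all tested genes. In 5 of the 9, *Actg2*, *Myh11*, *Cnn1*, *Smtn* and *Synpo2*, every LiCl sample lay below every control, which held for 27.8% of all tested genes, and in 0 was every LiCl sample above every control, which held for 26.4%. With 3 samples against 3, the two-sided exact permutation test of 1 gene has a smallest possible p of 0.1, a value reached by these 5 genes, so the statements rest on the fit across all genes. Nothing in the labels says that the samples came from separate cultures or animals, and the p-values measure the spread between these samples, which may be technical.

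**Figure D1:**
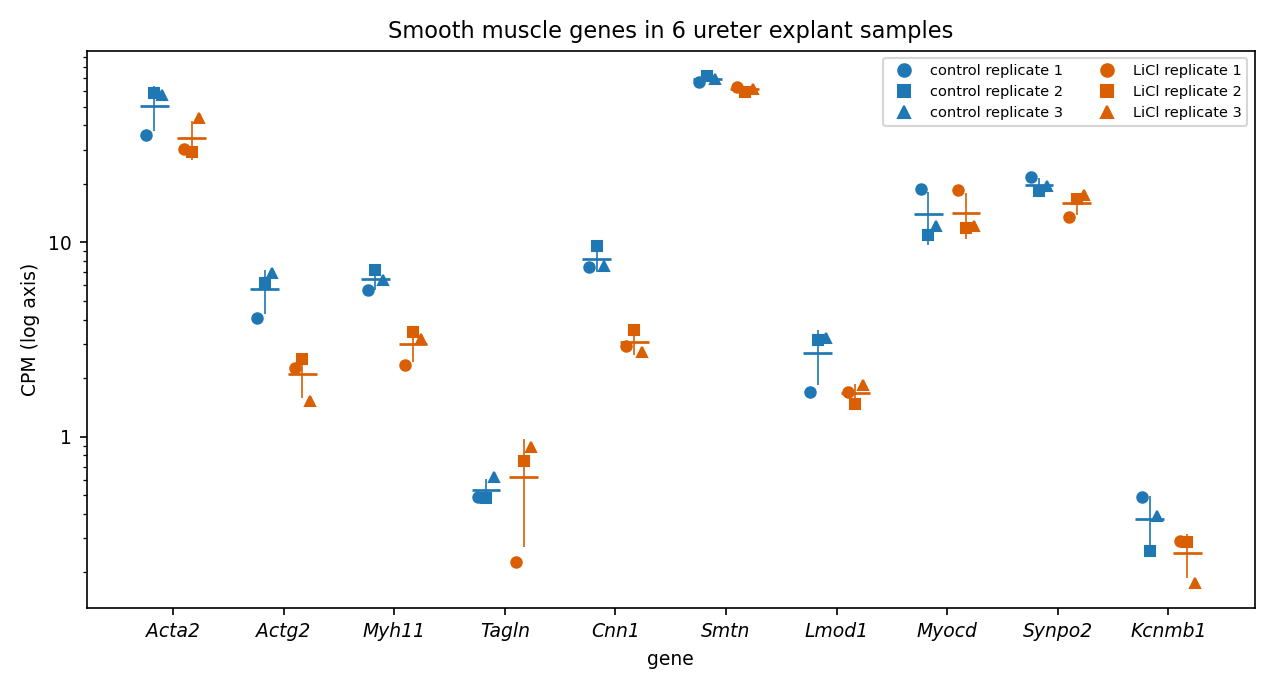
CPM (log axis) of the 10 genes in each of the 3 control (blue) and 3 LiCl (orange) samples, with the group mean (horizontal line) and SD (vertical line). *Actg2*, *Myh11* and *Cnn1* lay lower in every LiCl sample, whereas replicate 1 was the highest sample for *Myocd* in both groups.

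The smooth muscle actins were the first structural genes examined. *Acta2*, which encodes the smooth muscle alpha-actin of the thin filaments, was at 35.6, 59.0 and 57.1 CPM in control replicates 1 to 3 and at 30.4, 29.2 and 43.6 CPM in LiCl replicates 1 to 3. Control replicate 1 was low and LiCl replicate 3 was high for their groups, so that the groups overlapped. The mean fell from 50.6 ± 12.99 to 34.4 ± 8.01 CPM (SD, n = 3). The log2 fold change was -0.56 ± 0.20 (SE), with an adjusted p of 0.0486 in edgeR's test. The result was close to the threshold. Without single libraries the log2 fold change was between -0.76 and -0.43, and the adjusted p rose to 0.163, 0.16, 0.13 and 0.135 without control replicate 2, control replicate 3, LiCl replicate 1 and LiCl replicate 2, respectively. The adjusted p was 0.00521 without control replicate 1 and 0.0192 without LiCl replicate 3. It was 0.134 with DESeq2, and 0.0568 (log2 fold change -0.79) with LiCl replicate 2 as the sole LiCl sample. Developing skeletal muscle also transcribes *Acta2*. LiCl replicate 3, the highest of its group for this gene, also held the most skeletal muscle transcripts, and the part of these cells in the value was not tested.

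*Actg2*, the gamma-actin of enteric and urinary smooth muscle, gave a clearer difference. It was at 4.10, 6.15 and 6.95 CPM in the controls and at 2.25, 2.51 and 1.53 CPM after LiCl. All LiCl samples were below all controls, from 118, 191 and 213 counts to 70, 70 and 43 counts. The mean fell from 5.74 ± 1.47 to 2.10 ± 0.51 CPM (SD, n = 3), and the log2 fold change was -1.45 ± 0.24 (SE, adjusted p = 0.00121, edgeR). Per length, *Acta2* exceeded *Actg2* by 5.83 to 6.79 times in the controls and by 9.58, 8.26 and 20.3 times in LiCl replicates 1 to 3, a ratio of FPKM that was computed after the values of both genes were seen. The other actins are near relatives that are not specific to smooth muscle. The cytoplasmic *Actg1* fell by 0.26 on the log2 scale (adjusted p = 0.0014), but 29.9% of the windows of 100 bases in its transcripts are shared with other annotated genes, the pseudogene *Actg-ps1* among them. The striated muscle actins *Acta1* (log2 fold change 1.058, adjusted p = 0.109) and *Actc1* (0.42, adjusted p = 0.128) were highest in LiCl replicate 3, at 10.5 and 58.6 CPM.

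Because SRF and myocardin act through CArG boxes, the 250 bases upstream of the start of each gene were searched on both strands, and the sequences of *Acta2* and *Cnn1* are printed here as the smooth muscle gene with the highest level per length and as a gene called lower. RefSeq sequences (GRCm38.p6) were held for 6 of the 10 genes, namely *Acta2*, *Cnn1*, *Smtn*, *Lmod1*, *Synpo2* and *Kcnmb1*. A CArG box was spelled as CC, a run of 6 letters A or T, and GG. None of the 6 stretches held one, whereas 1.47% of 32851 such stretches of all genes did. With 1 G or C allowed inside the run, a choice made after the strict search had no match, *Acta2* held 2 matches and the other 5 genes none, against 7.24% of all stretches with at least 1 match. The capitals in the *Acta2* sequence mark these 2 matches, which lie 84 to 75 and 34 to 25 bases upstream of the start. The stretch of *Acta2* is chr19:34255374-34255623 (minus strand) and that of *Cnn1* is chr9:22099003-22099252 (plus strand), both printed 5′ to 3′.
*Acta2*: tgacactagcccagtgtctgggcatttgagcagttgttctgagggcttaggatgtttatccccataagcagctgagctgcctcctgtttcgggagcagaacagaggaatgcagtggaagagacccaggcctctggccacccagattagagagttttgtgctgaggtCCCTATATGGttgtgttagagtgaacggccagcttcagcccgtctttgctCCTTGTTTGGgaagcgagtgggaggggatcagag
*Cnn1*: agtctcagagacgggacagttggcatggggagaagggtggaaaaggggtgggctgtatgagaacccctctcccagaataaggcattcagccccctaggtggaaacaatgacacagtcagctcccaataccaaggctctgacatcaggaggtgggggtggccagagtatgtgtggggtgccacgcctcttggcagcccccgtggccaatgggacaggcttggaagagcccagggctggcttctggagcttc
The letters CTTTGAA and CTTTGAT, read by TCF/LEF factors of the WNT pathway, were in none of the 6 stretches on either strand, and 4.46% and 3.21% of all stretches held them. TATAAA was found in 1 stretch, that of *Synpo2*, on the opposite strand 233 to 228 bases upstream of the start, and 12.4% of all stretches held it on either strand. A match of letters is a description of this window and no measure of binding.

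The genes for myosin heavy chain and calponin were lower as well. *Myh11*, which encodes the motor protein of the thick filaments, was at 5.67, 7.25 and 6.43 CPM in the controls and at 2.35, 3.44 and 3.19 CPM after LiCl. The highest LiCl sample thus remained well below the lowest control. Its mean fell from 6.45 ± 0.79 to 2.99 ± 0.57 CPM (SD, n = 3; log2 fold change -1.11 ± 0.17 SE, adjusted p = 0.000807, edgeR). Without LiCl replicate 1 the change was -0.96, so that *Myh11* no longer passed the limit of -1 while its adjusted p stayed under 0.05. *Cnn1*, whose product binds actin and inhibits the myosin ATPase, was at 7.51, 9.63 and 7.57 CPM in the controls and at 2.93, 3.54 and 2.73 CPM after LiCl. The groups were far apart compared with their spread, and *Cnn1* had the smallest adjusted p of the 9 members. Its mean fell from 8.24 ± 1.21 to 3.07 ± 0.42 CPM (SD, n = 3; log2 fold change -1.43 ± 0.16 SE, adjusted p = 0.000117, edgeR), and the change lay between -1.54 and -1.29 when single libraries were left out.

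*Smtn* and *Synpo2*, which encode smoothelin and synaptopodin 2, proteins associated with actin filaments, fell by much less. *Smtn* was at 66.8, 71.8 and 69.3 CPM in the controls and at 62.8, 59.8 and 61.6 CPM after LiCl. The groups were narrow and did not overlap, and the log2 fold change was -0.18 ± 0.05 (SE, adjusted p = 0.0188, edgeR). *Synpo2* was at 21.7, 18.4 and 19.6 CPM in the controls and at 13.6, 16.8 and 17.5 CPM after LiCl, with a log2 fold change of -0.32 ± 0.11 (SE, adjusted p = 0.0382, edgeR). LiCl replicate 1 was the lowest sample for *Synpo2*, and without it the log2 fold change was -0.21 (adjusted p = 0.102). Neither call was firm. Leaving out control replicate 2, control replicate 3, LiCl replicate 2 or LiCl replicate 3 raised the adjusted p of *Smtn* to between 0.061 and 0.0722. For *Synpo2*, the adjusted p was 0.124, 0.0863 and 0.0512 without control replicate 1, control replicate 3 and LiCl replicate 2, respectively.

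*Lmod1*, *Tagln* and *Kcnmb1* had few counts, and those of *Tagln* may depend on the unknown strand setting. *Lmod1* encodes leiomodin 1, which nucleates actin filaments, and was at 1.70, 3.16 and 3.23 CPM in the controls and at 1.71, 1.47 and 1.85 CPM after LiCl. Control replicate 1 lay within the range of the LiCl samples. The log2 fold change of -0.69 ± 0.26 (SE) had an adjusted p of 0.0569 in edgeR's test, and without control replicate 1 it was -0.93 with an adjusted p of 0.00637. *Tagln* encodes transgelin, an actin-binding protein and common early marker of SMCs, with 14, 15 and 19 counts in control replicates 1 to 3, and with 7, 21 and 25 counts after LiCl. It ranged from 0.483 to 0.62 CPM in the controls and from 0.225 to 0.887 CPM after LiCl, with the lowest and the highest sample in the LiCl group. Its log2 fold change was 0.21 with a 95% interval of -0.81 to 1.22 (adjusted p = 0.736, edgeR), so that these samples give no direction. Of the genes on the opposite strand, *Pcsk7* had 1026 to 1189 counts, many times those of *Tagln*, and a log2 fold change of 0.08 (adjusted p = 0.228). The other, *Gm48529*, fell from 32, 45 and 41 counts in control replicates 1 to 3 to 29, 19 and 21 counts after LiCl. Its log2 fold change was -0.72 (adjusted p = 0.0384, edgeR). *Kcnmb1*, the beta subunit of the large-conductance calcium-activated potassium channel of smooth muscle, had 14, 8 and 12 counts in control replicates 1 to 3, and 9, 8 and 5 counts in LiCl replicates 1 to 3. These counts were under the filter on low counts, and the gene was not tested.

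*Myocd*, the activator of this program, showed no difference past the test. The study places the onset of *Myocd* expression in the UM at a later stage than that of these explants. It was at 18.8, 10.98 and 12.1 CPM in the controls and at 18.5, 11.9 and 12.1 CPM after LiCl. Replicate 1 was the highest in both groups, and the groups covered nearly the same range. The means were 14.0 ± 4.23 and 14.2 ± 3.77 CPM (SD, n = 3), and the log2 fold change was 0.03 ± 0.23 (SE, adjusted p = 0.936, edgeR) with a 95% interval of -0.48 to 0.53. A change of *Myocd* as large as that of *Cnn1*, whose interval was -1.78 to -1.08, lay outside this interval, but smaller changes in both directions lay inside it. When single libraries were left out, the change was between -0.21 and 0.30, and it passed the test in 0 of these fits. Replicate 1, the highest for *Myocd* in each group, was in neither group the highest for *Acta2*, *Actg2*, *Myh11*, *Cnn1* or *Lmod1*, but it was the highest control for *Synpo2* and the highest LiCl sample for *Smtn*. In control replicate 1, *Myocd* was 0.70 above the mean of the other controls on the log2 scale, whereas *Acta2*, *Actg2* and *Lmod1* were at -0.70, -0.66 and -0.88 relative to that mean. In LiCl replicate 1, *Myocd* was 0.62 above the other LiCl samples, *Tagln* was at -1.59 and *Myh11* at -0.48, and *Actg2* was 0.20 above them.

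**Figure D2:**
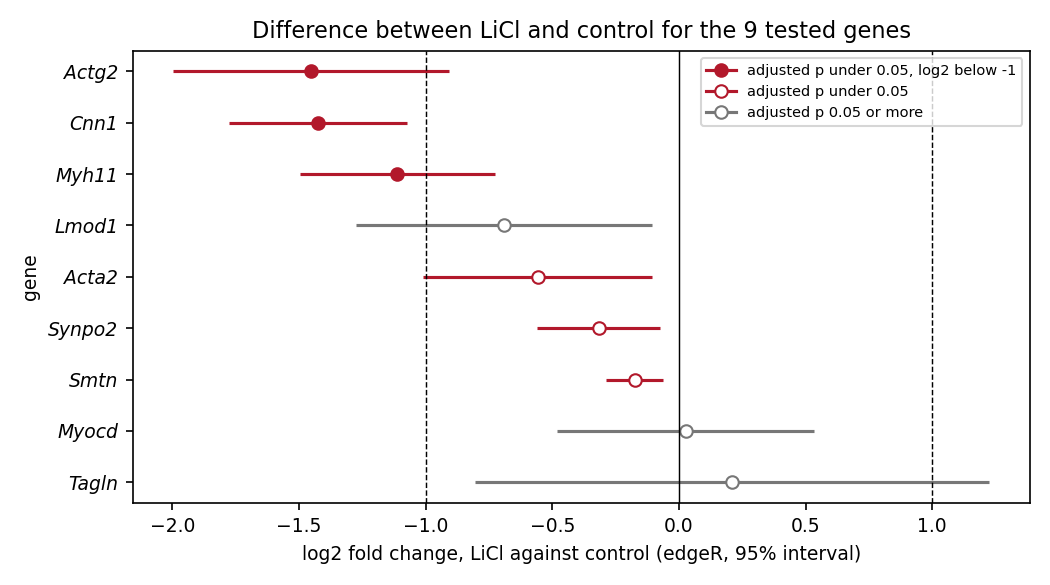
Log2 fold change between LiCl and control of the 9 tested genes (points) with 95% intervals from edgeR's fit (lines), and the limits of -1 and 1 (dashed). Filled red points are the 3 genes called lower, open red points the 3 further genes with an adjusted p under 0.05, and the interval of *Myocd* spans 0.

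Levels of different genes were compared per length, in FPKM. In the controls, *Acta2* (22.8 FPKM) and *Smtn* (15.7 FPKM) led, and their ranges over samples overlapped. A group with *Actg2* at 3.65, *Cnn1* at 2.98 and *Myocd* at 2.15 FPKM followed, in which each neighbour overlapped the next. *Synpo2* (1.5 FPKM) was apart from *Myocd* above it and from *Myh11* (0.84 FPKM) below it, and *Myh11* overlapped *Lmod1* (0.677 FPKM). *Tagln* (0.264 FPKM) and *Kcnmb1* (0.0893 FPKM) were lowest and apart from each other. *Tagln* and *Myh11*, among the most abundant transcripts of mature smooth muscle, were thus under 1 FPKM in these ureters. The level and rank of *Tagln* are uncertain, since 67.9% of its exon bases overlap genes on the opposite strand. The strand setting of the counting is not known. After LiCl, *Acta2* (15.7 FPKM) and *Smtn* (14.0 FPKM) still overlapped at the top. *Myocd* (2.21 FPKM) came next and was apart from *Actg2* (1.346 FPKM), which overlapped *Synpo2* (1.22 FPKM), which in turn overlapped *Cnn1* (1.122 FPKM). *Lmod1* (0.424 FPKM), *Myh11* (0.394 FPKM) and *Tagln* (0.313 FPKM) overlapped from neighbour to neighbour, and *Kcnmb1* (0.06 FPKM) was last.

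**Figure D3:**
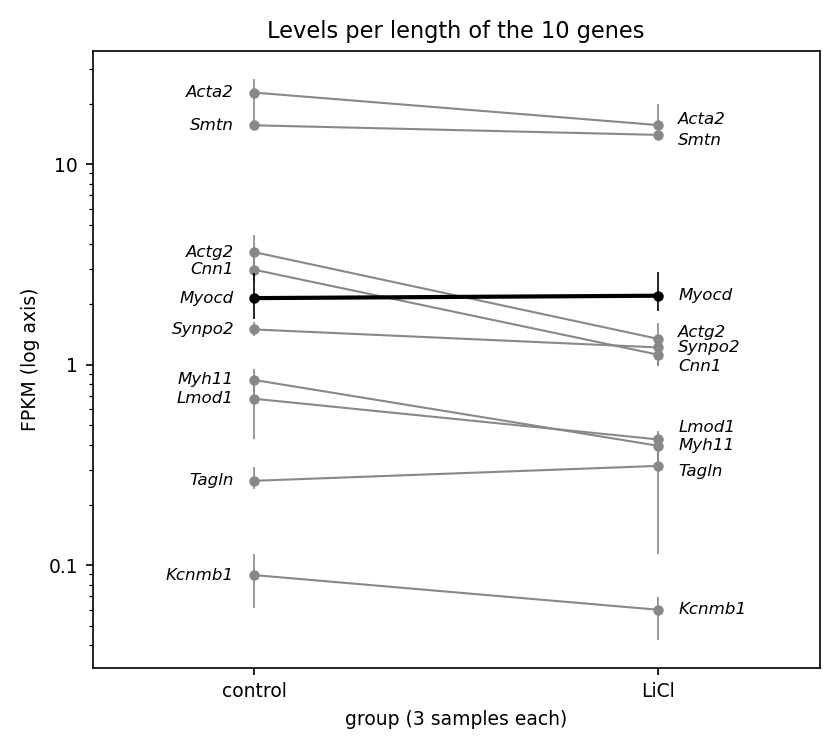
Mean FPKM (log axis) of the 10 genes in controls and after LiCl, with the range over the 3 samples of each group (vertical lines). *Actg2* and *Cnn1* crossed below *Myocd* (black), which was at 2.15 FPKM in controls and 2.21 FPKM after LiCl.

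Many further contractile and cytoskeletal genes of smooth muscle also fell, most of them by less than the limit for a call. Of 24 such genes, 23 were tested, 13 fell and 0 rose, against 22.4% and 21.1% of all tested genes. The median log2 fold change was -0.26, and the smallest change among the 13 was that of *Cald1* (-0.14). Only 2 were called lower, against 4.59% of all tested genes. *Myl9*, the regulatory light chain of smooth muscle myosin, was at 65.9, 91.9 and 77.02 CPM in the controls and at 31.2, 33.2 and 35.8 CPM after LiCl (log2 fold change -1.23 ± 0.11 SE, adjusted p = 3.84e-05, edgeR). *Nexn*, which encodes the actin-binding protein nexilin, went from 10.4 ± 0.95 to 4.29 ± 0.23 CPM (SD, n = 3; log2 fold change -1.28, adjusted p = 3.58e-05). In both genes every LiCl sample was below every control. Others that fell were the calponins *Cnn2* (-0.75) and *Cnn3* (-0.45), the myosin phosphatase inhibitor *Ppp1r14a* (-0.72), the tropomyosin *Tpm1* (-0.66) and the myosin light chain kinase *Mylk* (-0.42). *Des*, the intermediate filament protein of muscle, was at 13.1 ± 0.44 and 12.4 ± 3.51 CPM (SD, n = 3) and did not pass the test (log2 fold change -0.08, adjusted p = 0.741).

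Of 10 tested genes for ion channels and calcium handling, 3 fell and 0 rose, where 22.4% of all tested genes fell and 21.1% rose, so that the share that fell was near the background. The L-type calcium channel *Cacna1c* went from 25.8 ± 4.16 to 16.5 ± 1.14 CPM (SD, n = 3; log2 fold change -0.65, adjusted p = 0.00174), and *Kcnmb4* (-0.67) and *Ano1* (-0.46) were the others that fell. This count went down to 1 without control replicate 1, LiCl replicate 2 or LiCl replicate 3. *Kcnma1*, the pore of the channel to which *Kcnmb1* contributes, was at 23.6 ± 5.27 and 25.4 ± 3.12 CPM (SD, n = 3; log2 fold change 0.10, adjusted p = 0.601).

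The factor to which MYOCD binds moved upwards. *Srf* was at 62.4, 63.6 and 60.6 CPM in the controls and at 71.5, 73.5 and 76.1 CPM after LiCl, and rose by 0.24 on the log2 scale (adjusted p = 0.00315, edgeR). It was the single gene of 8 tested SRF-related genes that rose, a count that was 0 with LiCl replicate 2 as the sole LiCl sample and 2 without control replicate 2. The other SRF coactivators *Mrtfa* (-0.08, adjusted p = 0.223) and *Mrtfb* (-0.11) did not pass the test. Of the 8, 2 fell, where 22.4% of all tested genes fell and 21.1% rose. The share that fell was thus near the background. *Ccn2* was at 23.4, 26.0 and 22.4 CPM in the controls and at 5.44, 8.52 and 8.76 CPM after LiCl (log2 fold change -1.66 ± 0.16 SE, adjusted p = 5e-05), and *Ccn1* fell by 0.66. The other 3, *Zyx* (-0.03, adjusted p = 0.584), *Fhl2* (-0.10, adjusted p = 0.632) and *Csrp2* (0.12, adjusted p = 0.092), did not pass the test.

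Among 20 tested regulators upstream of the ureteric SMC program, 8 fell and 4 rose, against 22.4% and 21.1% of all tested genes. Their median was -0.11 on the log2 scale, and the share that rose was near the background. *Heyl*, a target of NOTCH signaling, was at 16.6, 16.4 and 17.04 CPM in the controls and at 5.02, 6.84 and 6.35 CPM after LiCl (log2 fold change -1.46 ± 0.12 SE, adjusted p = 1.87e-05). It was the only 1 of the 20 called lower, a share near the 4.59% of all tested genes. The SHH antagonist and target *Hhip* (-0.78), the NOTCH target *Hey1* (-0.59) and the UM transcription factor *Tbx18* (-0.58) also fell. *Bmp4* and *Gata6*, which promote SMC differentiation, fell by 0.22 each (adjusted p of 0.00489 and 0.0117), whereas *Foxf1* did not pass the test (0.08, adjusted p = 0.25). The SHH target *Gli1* (0.28), *Tbx2* (0.27), *Notch3* (0.19) and *Tbx3* (0.13) rose, and this count was 2 with library size as the only scaling and without control replicate 2, LiCl replicate 2 or LiCl replicate 3, and 1 with LiCl replicate 2 as the sole LiCl sample. Of 10 repressors and antagonists of smooth muscle differentiation, 3 fell and 2 rose (1 with LiCl replicate 2 as the sole LiCl sample), beside 22.4% and 21.1% of all tested genes. The others that fell beside *Twist1* were *Hey2* (-0.60) and *Klf5* (-0.25). *Twist1* went from 57.8 ± 6.45 to 29.2 ± 1.71 CPM (SD, n = 3; log2 fold change -0.99, adjusted p = 3e-05). *Stra6*, which takes up vitamin A for retinoic acid signaling (0.70, adjusted p = 1.78e-05), and *Klf4*, a repressor of SMC genes (0.65, adjusted p = 0.00484), rose.

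**Figure D4:**
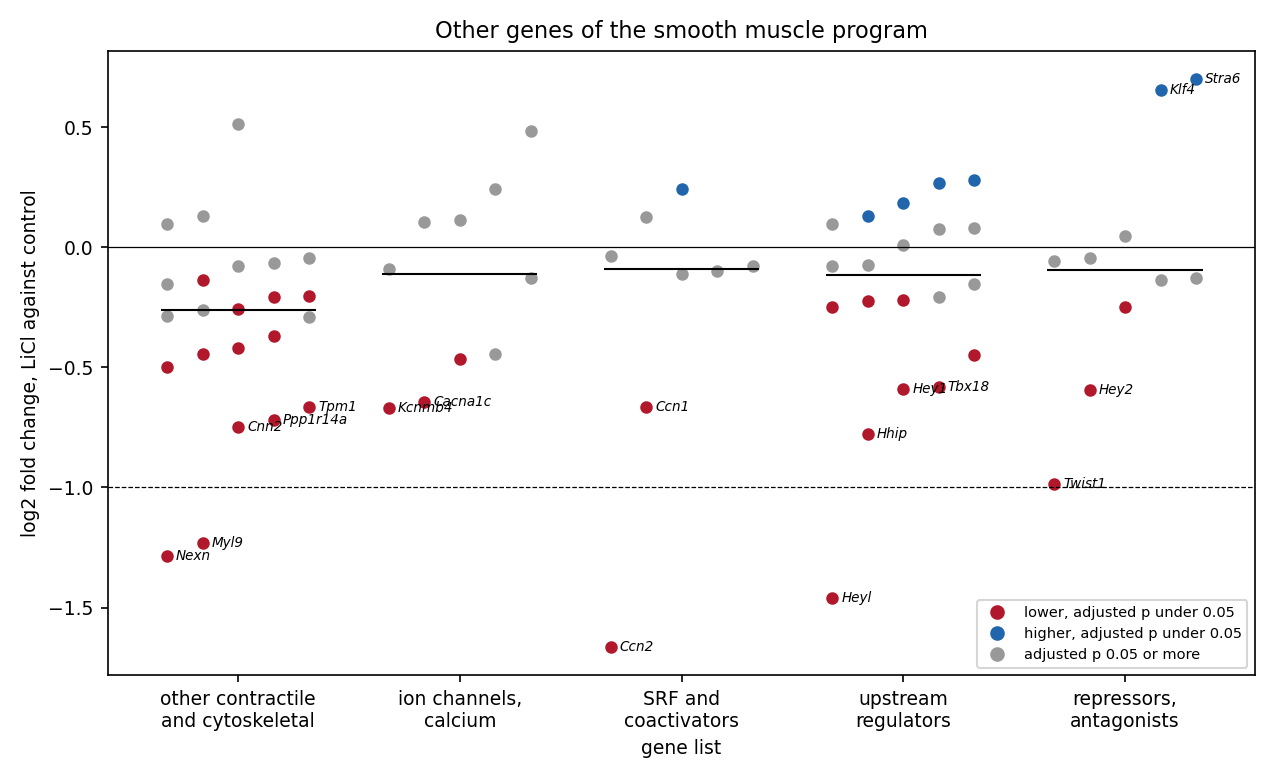
Log2 fold change of the tested genes of 5 further lists, each point a gene, with the median of each list (black line) and the limit of -1 (dashed). Red genes fell and blue genes rose at an adjusted p under 0.05. Of 23 contractile and cytoskeletal genes, 13 fell and 0 rose, against 22.4% and 21.1% of all tested genes.

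Markers of other cells that express smooth muscle genes were measured beside these values. The counts of markers stand beside 22.4% of all tested genes that fell and 21.1% that rose. Of 6 markers of vascular mural cells, which share *Acta2*, *Myh11* and *Myl9* with visceral smooth muscle, 4 fell and 0 rose, and none was at 0 in any sample. Their summed level was 539 to 571 CPM in the controls and 342 to 389 CPM after LiCl. *Pdgfrb* went from 159 ± 9.81 to 81.7 ± 5.36 CPM and *Rgs5* from 241 ± 20.3 to 146 ± 12.52 CPM (SD, n = 3), whereas *Cspg4* was at 32.3 and 34.8 CPM and *Kcnj8* at 2.41 and 2.13 CPM. The 6 endothelial markers, of which 1, *Tek*, fell, gave 486 to 610 CPM and 439 to 542 CPM, with overlap between the groups. Of 6 mesenchymal markers, 5 fell and 1, *Vim*, rose, and their sum was 6383 to 6984 CPM in the controls and 4641 to 5281 CPM after LiCl. The collagens *Col1a1* and *Col3a1* made up most of this sum, with means of 2614 and 1867 CPM in the controls and 1984 and 1211 CPM after LiCl. Of 6 epithelial markers, 5 fell and 1, *Epcam*, rose, with sums of 988 to 1266 CPM and 760 to 799 CPM. The part of mural, mesenchymal and epithelial cells in the lower levels of *Actg2*, *Myh11* and *Cnn1* was not tested.

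Skeletal muscle markers rose in the LiCl group, but most of them not in each of its samples. Of 16 markers, 9 were tested, 5 rose and 0 fell, against 21.1% and 22.4% of all tested genes. *Myh3*, the embryonic myosin heavy chain, was at 0.209, 0.966 and 0.359 CPM in the controls and at 12.8, 0.788 and 28.9 CPM in LiCl replicates 1 to 3. *Myog* and *Mylpf* also overlapped the controls in LiCl replicate 2. The other markers that rose, *Mybpc1* and *Actn2*, were above every control in LiCl replicate 2 as well. They were at 2.04 and 0.967 CPM there, and at most at 0.591 and 0.685 CPM in the controls. In some samples *Myog*, *Myf5*, *Pax7*, *Myh8* and *Tnnc2* were at 0. The summed level of 6 heart muscle markers, several of which embryonic skeletal muscle also expresses, followed the same samples, with 3.98 to 4.59 CPM in the controls and 8.69, 2.72 and 10.6 CPM after LiCl. Of these markers 3 were tested, and 0 rose and 0 fell, against 21.1% and 22.4% of all tested genes. *Myh6*, which was not tested, went the other way, from 24, 9 and 15 counts in the controls to 8, 5 and 6 counts after LiCl. With LiCl replicate 2 as the only LiCl sample, *Actg2* and *Cnn1* were still called lower, and 3 members, these 2 and *Myh11*, fell. In that fit the lone sample is assumed to vary like the controls.

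**Figure D5:**
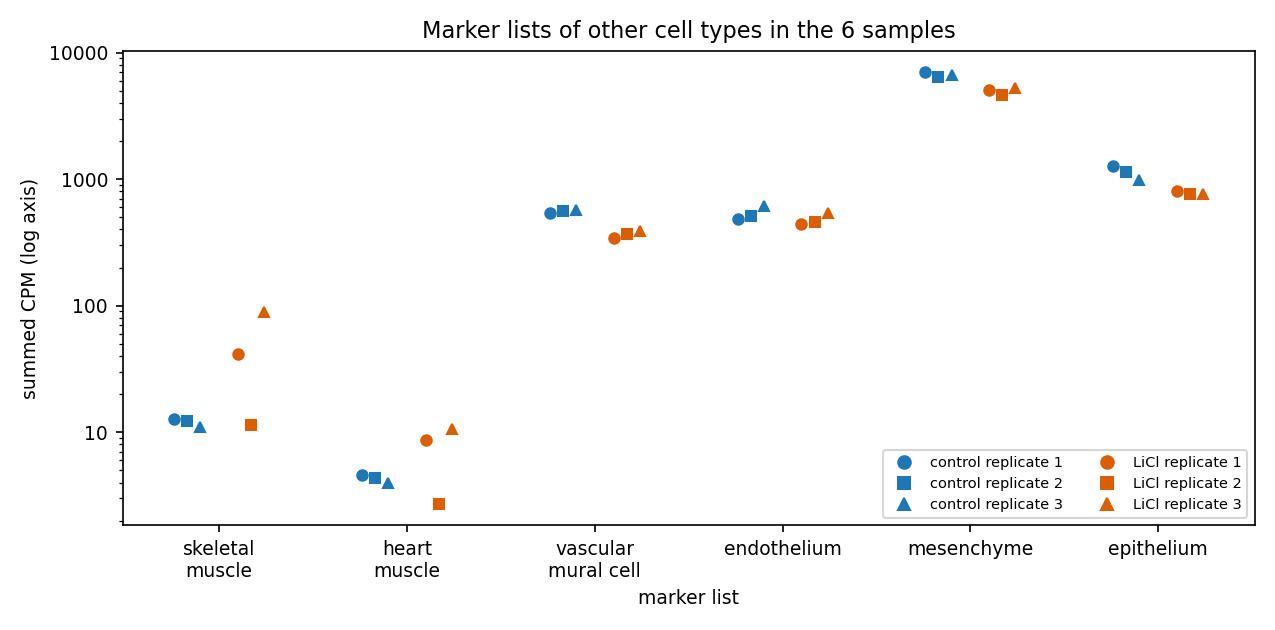
Summed CPM (log axis) of 6 marker lists in each of the 3 control (blue) and 3 LiCl (orange) samples. LiCl replicates 1 and 3 were high for skeletal and heart muscle markers, and all LiCl samples were below all controls for mural cell, mesenchyme and epithelium markers.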

How the data were processed

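RNA-Seq libraries (poly-A, stranded, paired-end) came from 6 samples of cultured E12.5 ureters. The authors deposited raw counts per Ensembl gene and FPKM values per sample, for all 6 samples. Reads were aligned to GRCm39 and counted with featureCounts. The aligner is HISAT2 in the methods of the study and STAR 2.7 in the submitters' processing notes, which also name fastp 0.23, featureCounts 2.0 and DESeq2 1.40. Annotation release and strand setting are not given in the sources used here. The deposited FPKM equal counts divided by DESeq2 size factors and gene length, since lengths recomputed in this way were whole (tolerance 0.01 bases) for 100% of 13480 genes with more than 50 counts. Symbols and overlaps came from GENCODE vM21 (GRCm38), in which 52073 identifiers had a symbol, and the gene lengths of 10 of 10 members matched that release.

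For the comparison of LiCl with control, the counts were given to edgeR 4.0.16 in R 4.3.3 (filterByExpr with a minimum count of 10, TMM, quasi-likelihood F test, Benjamini-Hochberg). CPM carry TMM factors (0.982 to 1.025). The script was tested on simulated data for this comparison, where 100% of 200 changed genes were recovered among 18316 tested, with 2 false calls. This run was a check of the script only. Recovery at the fold changes and the spread between samples seen for the members was not tested. Members and gene lists were chosen with earlier results of these data known. All members are given, and of the other lists genes with an adjusted p under 0.05 or the 3 largest absolute log2 fold changes could be named. *Des*, *Kcnma1*, *Mrtfa*, *Mrtfb*, *Zyx*, *Fhl2*, *Csrp2*, *Foxf1*, *Pcsk7*, *Gm48529* and single cell type markers were named beyond this after their values were seen. No list was tested as a set.

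As alternatives, TMM was replaced by RLE factors or by library size alone, and the filter was dropped or set to 10 counts in each sample. The replicate number was added as a block, each library was left out in turn, and LiCl replicate 2 was used as the sole LiCl sample. Other tests were DESeq2 1.42.0, glmTreat against a log2 fold change of 1, and limma 3.58.1 on log2 FPKM with a pseudocount of 1 or 0.1 (mean FPKM 0.5 or higher) or with a pseudocount of 1 and no filter.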

Additional observations from a re-analysis of the deposited data

How the results depend on the processing

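*Actg2* and *Cnn1* were called lower with DESeq2, with RLE factors, with library size alone, with both other filters, with the block, limma on log2(FPKM + 0.1) and every library left out in turn, and *Myh11* in the same fits except limma on log2(FPKM + 0.1) and the fit without LiCl replicate 1. The number of members called lower was 0 with limma on log2(FPKM + 1), with or without a filter, where the pseudocount shrinks the change of weak genes, and 0 with glmTreat, which tests for a change beyond 1 on the log2 scale and in which 162 genes of the whole table were called lower and 172 higher. It was 2 to 3 when single libraries were left out. The count of members that fell, 6 in the report, was 3 to 6 without single libraries (3 without control replicate 3 or LiCl replicate 2), 3 with LiCl replicate 2 as the sole LiCl sample, 3 with limma at a pseudocount of 1 and no filter, and 4 with DESeq2. Over the whole table, 835 genes were called lower and 498 higher, against 141 and 177 with limma on log2(FPKM + 1), 139 and 171 without its filter, and 430 lower on log2(FPKM + 0.1). The direction of 2 changes that did not pass the test turned. Without single libraries, *Tagln* was between -0.13 (without LiCl replicate 3) and 0.63, and *Myocd* was between -0.21 and 0.30. In single fits, *Myocd* was at -0.0054 with library size only, -0.11 without control replicate 2, -0.06 without control replicate 3, -0.21 without LiCl replicate 1 and -0.22 with LiCl replicate 2 as the sole LiCl sample, with no adjusted p under 0.05 in any of these. The cause was not tested. *Lmod1* passed an adjusted p of 0.05 with library size only (0.0474) and without a filter on low counts (0.0276).

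No strong effect shared by samples of the same replicate number was seen across genes. The deviations from the group mean of a control and the LiCl sample of that number had correlations of 0.031, -0.09 and 0.10. With 3 samples per group, these values cannot exclude that the samples were paired. With the replicate block, 3 members were called lower and 4 fell (*Smtn* had an adjusted p of 0.055 and *Synpo2* of 0.0781). The count of upstream regulators that rose, 4 in the report, was 2 with the block. *Tagln* and *Kcnmb1* had at most 25 counts in a sample.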

Other observations

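Genes whose log2 CPM over the 6 samples was most like that of *Myocd* were *Rpl35a-ps2* (Pearson's r = 0.996), *Gm10240* (0.994), *Gm15539* (0.978), *Lpar1* (0.978), which encodes a receptor for lysophosphatidic acid, and *Gm10093* (0.976). For the mean of the 8 other tested members they were *Rnf122* (0.999), *Tsacc* (0.998), *Serpinb6b* (0.995), *Etv1* (0.995), an ETS transcription factor, and *Vamp5* (0.993). Of 18179 genes, 22 had an r above 0.95 with *Myocd* and 384 with that mean. These values are descriptions over 6 samples that fall into 2 groups, and the samples share libraries and scaling.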
